A study of Mus musculus with 9 samples.

Results

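The unfolded protein response and the integrated stress response were followed here through 33 mouse genes, chosen by name but with earlier results of these data known. They were sorted into 12 chaperones and folding enzymes of the endoplasmic reticulum (ER), 7 stress sensors and transcription factors, 4 genes of ER-associated degradation, 5 Atf4 targets and regulators of the response, and 5 Atf4-linked enzymes of amino acid and one-carbon metabolism. All 33 genes were found, through 41 of the 33299 RefSeq transcripts in the deposited table, which held 23798 genes in all after transcripts were summed by gene symbol. The RNA came from mouse brain and was read from the 3' end of transcripts with a QuantSeq kit, after extraction with a kit made for fixed, paraffin-embedded tissue. Each of 3 groups held 3 libraries: wild-type mice given placebo (WT placebo), TG mice, as the genotype label calls them, on placebo (TG placebo), and TG mice given NM-101 (TG NM-101). The labels give neither the transgene and its promoter nor the age of the mice, and do not say what NM-101 is or how it was dosed. By its title the series concerns how alpha-synuclein from neurons acts on oligodendrocytes, the cells that form myelin in the brain.

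Proteins bound for the membrane or for secretion fold in the ER with the help of chaperones. When unfolded proteins build up there, the sensor Ern1 (Ire1) splices the Xbp1 mRNA, the sensor Atf6 is cut to release a transcription factor, and the kinase Eif2ak3 (Perk) phosphorylates eIF2alpha. The last step slows translation in general and favours translation of Atf4, the shared output of the integrated stress response, which other kinases also switch on. Oligodendrocytes, plasma cells and other cells with a heavy load of membrane or secreted protein lean on this system, and it can be measured in part as mRNA because Xbp1, Atf6 and Atf4 act on the promoters of their target genes.

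Motifs through which these factors are known to act were looked for in the promoters, and the matches are shown because those of the ER branch and of the Atf4 branch fell, with 1 exception, in different genes. A match describes the letters in the window and is not evidence of a bound site. Motifs and branches both rest on what was already known of such genes, so the split between branches is not a test. RefSeq promoters of the build GRCm38.p6, from 250 bases before to 50 after each start site, were found for 30 of the 33 genes, the others being Atf6, Hyou1 and Manf. The ER stress response element, ERSE, was searched on both strands as CCAAT and CCACG with 9 bases of any kind between them. It was found in 6 of the 10 chaperone genes with a promoter, in Syvn1 among the 4 degradation genes, and in 0 of 16 genes of the other branches. Of 27025 genes with a promoter, 37 held it (0.137%). These 37 genes include the 7 named here. The sites are printed below with up to 10 flanking bases on the strand that holds the motif, and capitals mark the fixed letters of the ERSE.
Hspa5: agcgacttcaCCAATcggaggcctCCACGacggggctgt
Hsp90b1, distal site: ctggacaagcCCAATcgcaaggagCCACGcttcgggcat
Hsp90b1, proximal site: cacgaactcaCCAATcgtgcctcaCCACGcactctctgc
Calr: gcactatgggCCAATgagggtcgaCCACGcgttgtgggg
Pdia6: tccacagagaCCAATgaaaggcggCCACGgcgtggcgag
Dnajc3: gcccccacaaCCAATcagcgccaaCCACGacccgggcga
Creld2: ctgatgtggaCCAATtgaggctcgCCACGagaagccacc
Syvn1: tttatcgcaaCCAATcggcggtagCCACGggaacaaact
The first base of these sites lay between 44 bases (Syvn1) and 212 bases (Hsp90b1) before the start site, counted on the strand of the gene. Hsp90b1 held 2 sites on opposite strands. The windows searched were chr2:34771840-34772139 for Hspa5, chr14:118937682-118937981 for Dnajc3, chr12:17266339-17266638 for Pdia6, chr15:88819396-88819695 for Creld2 and chr19:6046326-6046625 for Syvn1, all genes on the plus strand. For Hsp90b1 and Calr, on the minus strand, they were chr10:86705395-86705694 and chr8:84846882-84847181. The motif lay on the strand of the gene in Hspa5, Pdia6, Dnajc3, Syvn1 and the distal site of Hsp90b1, and on the opposite strand in the others.

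The Atf4 branch was searched with the C/EBP-ATF response element, CARE, as TGATGNAA on both strands. It was found in Asns, Atf3, Chac1, Trib3 and Herpud1, or 5 of 30 members, against 1219 of 27025 genes (4.51%), so the letters of this shorter motif are more common by far. The first 4 genes are printed on the strand that holds the motif, and capitals mark its fixed letters. Their windows were chr6:7693160-7693459 (Asns), chr1:191183284-191183583 (Atf3) and chr2:152344011-152344310 (Trib3), genes on the minus strand, and chr2:119350992-119351291 (Chac1), on the plus strand.
Asns: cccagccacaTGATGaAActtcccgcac
Atf3: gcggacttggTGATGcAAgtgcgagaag
Chac1: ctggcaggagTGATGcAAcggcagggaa
Trib3: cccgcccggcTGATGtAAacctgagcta
Herpud1 was the member with both kinds of site. Its promoter held a CARE and the compact ERSE-II (ATTGG and CCACG with any 1 base between them, on both strands, in 12 of 27025 genes, 0.0444%), which shares the CCACG letters with the ERSE but overlapped no ERSE here. The promoter of Herpud1, at chr8:94386179-94386478 on the plus strand, is shown whole with both motifs in capitals (the CARE, on the minus strand, reads here as its complement in reverse), beside the promoter of Hspa5 at chr2:34771840-34772139 on the plus strand with its ERSE and spacer in capitals.
Herpud1: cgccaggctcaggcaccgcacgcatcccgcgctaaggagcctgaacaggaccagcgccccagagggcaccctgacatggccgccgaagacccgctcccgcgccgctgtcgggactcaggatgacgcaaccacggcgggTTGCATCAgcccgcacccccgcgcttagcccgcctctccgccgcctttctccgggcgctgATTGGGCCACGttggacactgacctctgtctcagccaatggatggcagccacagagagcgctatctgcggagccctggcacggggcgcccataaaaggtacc
Hspa5: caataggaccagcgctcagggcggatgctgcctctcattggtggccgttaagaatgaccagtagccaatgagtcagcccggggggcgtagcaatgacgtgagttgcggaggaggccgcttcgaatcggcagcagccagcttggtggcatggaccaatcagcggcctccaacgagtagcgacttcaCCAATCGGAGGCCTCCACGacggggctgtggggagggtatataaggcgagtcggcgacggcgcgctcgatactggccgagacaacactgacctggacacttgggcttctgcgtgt
The element UPRE, searched as TGACGTGG on both strands, was in the window of 0 of 30 members and of 193 of 27025 genes (0.714%).

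The table mixes units, which sets what can be compared. The 3 WT libraries hold whole-number counts, with totals from 10612290 to 14041951. The 6 TG libraries hold log2 values that behave as log2(FPKM + 1), where FPKM is the fragment count scaled to transcript length and library total. Steps in their low values point to between 9130000 and 12840000 reads. Because FPKM divides by length while the reads come from the 3' end, the order of levels between genes depends on their lengths. A comparison of a gene with itself among the TG libraries does not, where its transcripts are of 1 length. Sel1l, Syvn1, Psat1 and Shmt2 are sums of transcripts of unequal length, so the division of reads between these can shift the sum. For WT the counts were divided by library total and by a transcript length from GENCODE M21, which gives log2(RPKM + 1), a scale close to that of the TG values but set separately, so that no test was made between WT and TG. The libraries are labelled as oligodendrocytes but also held neuronal RNA: in the TG libraries Snap25, a synaptic gene, stood between 9.96 and 10.27, and Mbp, the myelin gene, between 9.93 and 11.62. In bulk RNA, fewer cells of a type and less RNA per cell cannot be told apart. TG placebo replicates 2 and 3 stood apart in RNA that stays in nuclei, with Malat1 at 9.00 and 9.48 against 6.11 in TG placebo replicate 1 and 7.09 to 7.65 under NM-101. TG placebo replicate 1 stood apart in choroid plexus RNA, with the transthyretin gene Ttr at 12.14 against 2.65 and 3.60 in the other TG placebo libraries. Ttr was also high in TG NM-101 replicate 2 (9.998) and in WT replicate 1 (11.56). Whether each replicate is a mouse of its own is not in the labels, so p-values speak only of the spread among these libraries, which may be technical.

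**Figure D1:**
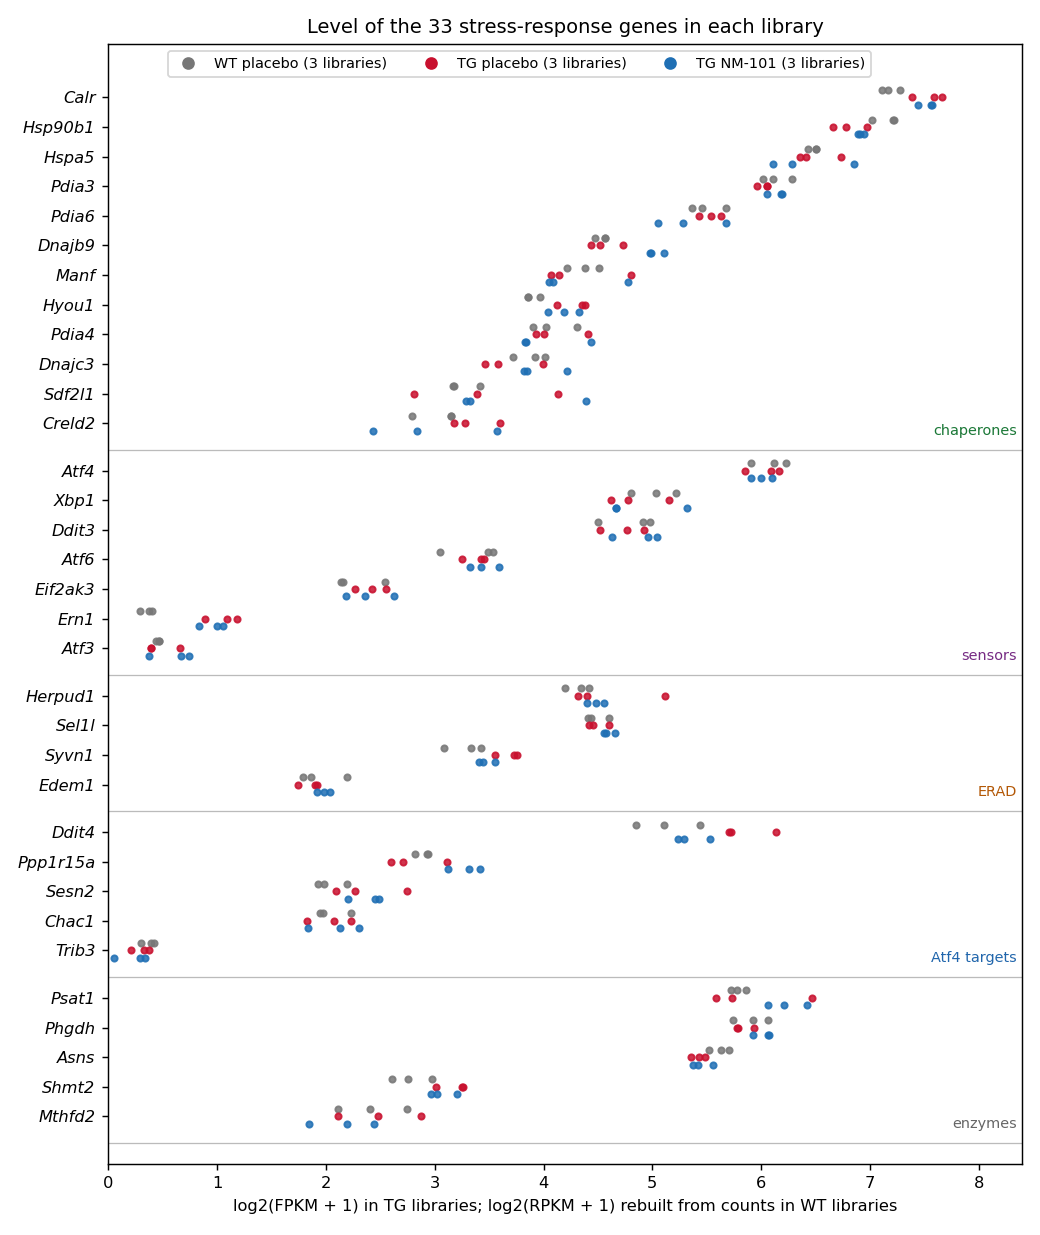
Level of each of the 33 genes in every library, by branch (x axis, log2(FPKM + 1) in the 6 TG libraries and log2(RPKM + 1) rebuilt from counts in the 3 WT libraries; each point is 1 library). Chaperone genes run from about the level of Creld2 to that of Calr, while Atf3, Trib3 and Ern1 lie at the foot of the scale in all groups.

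In WT brain the most abundant chaperones lay well above Atf3, Trib3 and Ern1, but other regulators lay among the chaperones. Ddit4 (5.13 ± 0.29) and Ddit3 (4.80 ± 0.26) had higher means than Dnajb9 (4.53 ± 0.05) and Hyou1 (3.90 ± 0.07), as log2(RPKM + 1) (SD, n = 3). Calr, the lectin chaperone calreticulin, and Hsp90b1, the ER form of Hsp90 (Grp94), had the highest rebuilt levels per length, at 144 and 141 RPKM. On that scale they did not differ beyond their spread (7.18 ± 0.08 and 7.15 ± 0.11 as log2(RPKM + 1), SD, n = 3). Their counts were 3555, 4367 and 3534 for Calr and 4409, 5877 and 4275 for Hsp90b1. Scaled to library total only (CPM), Hsp90b1 lay above Calr, at 399.0 ± 31.2 against 315.4 ± 17.8 (SD, n = 3). The 2 groups of values did not overlap there, so the tie depends on the division by length. Hspa5 (BiP, the chaperone that also holds the sensors inactive) followed at 6.48 ± 0.04 on the log2(RPKM + 1) scale, from 2487, 3295 and 2619 counts. On that scale the order then ran Pdia3 (6.14 ± 0.13), Atf4 (6.08 ± 0.16), Phgdh (5.91 ± 0.16) and Psat1 (5.78 ± 0.07). Each of these overlapped the next in the order, but all values of Pdia3 and Atf4 lay above those of Psat1. At the other end, 3 genes had the lowest counts, and Atf3 and Trib3 of these were close to the limit of detection. Atf3, a stress-induced transcription factor, had 8, 10 and 9 counts in the WT libraries. Trib3, a pseudokinase that Atf4 and Chop switch on, had 5, 9 and 8 counts, and a count of 5 has an exact 95% Poisson interval of 1.6 to 11.7, which covers counting error only. Ern1 had 22, 22 and 26 counts. In contrast Atf4 itself had 1079, 1793 and 1390 counts, and Ddit3 (Chop, the pro-apoptotic factor downstream of Atf4) had 204, 382 and 306. Chac1, an enzyme that degrades glutathione and a sensitive Atf4 and Chop target, had 51, 85 and 55 counts, or 5.18 ± 0.76 CPM, counts scaled to library total (SD, n = 3).

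Whether NM-101 altered these genes in TG mice was tested with limma, treated against placebo, over the 12699 genes whose mean log2(FPKM + 1) was at least 1 in the 6 TG libraries, with adjustment over all of them by the Benjamini-Hochberg method. Of the 33 genes 31 were tested, and Atf3 and Trib3 were too low. At an adjusted p under 0.05, 0 of the 31 passed, against 17 of 12699 genes (0.134%), of which 13 were higher (0.102%) and 4 lower (0.0315%) under NM-101. At an unadjusted p under 0.05 there were 3 of 31 (9.68%), Dnajb9 and Ppp1r15a with higher and Ddit4 with lower values under NM-101, against 14.8% of all genes tested (10.7% higher, 4.17% lower), so the share among the stress genes was not above the background. Values were higher under NM-101 for 16 of the 31 (51.6%, against 55.5% of all genes tested) and lower for 15. The median log2 difference was 0.01 beside 0.03 over all genes. With median-ratio scaling of the libraries the median of the 31 was -0.01. Groups did not overlap for 5 of the 31 (16.1%), against 19.6% of all genes. NM-101 was the higher group for 4 of them, Dnajb9, Pdia3, Edem1 and Ppp1r15a (12.9%, against 13.6%), and the lower group for Ddit4 (3.23%, against 5.98%). Members passed under 2 alternatives, both without TG placebo replicate 1. With that library alone left out, 5 of the 31 passed (Dnajb9, Dnajc3, Ppp1r15a, Ddit4 and Psat1), in a fit that called 2269 genes in all. With replicate 1 of both groups left out, a choice made after seeing the data, 4 passed (Dnajb9, Creld2, Ppp1r15a and Psat1) and 2704 genes in all. Both fits set NM-101 against only the 2 placebo libraries rich in nuclear RNA, and the part of that RNA in the calls was not tested.

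Markers of several cell types differed between the treated and placebo libraries too. For microglia, 7 of 8 markers had higher means under NM-101 and 4 lay above every placebo library, with summed FPKM of 235.1 to 255.3 under placebo and 307.7 to 312.2 under NM-101. For endothelial cells 0 of 6 markers had a higher mean under NM-101, with sums of 44.8 to 71.2 and 38.1 to 52.7. For astrocytes 8 of 8 had higher means, as given with the enzymes, and for neurons 5 of 8, with sums that overlapped. Below every placebo library lay 2 neuronal markers (Rbfox3 and Syn1) and 1 endothelial marker (Slco1a4). Of all genes tested, 55.5% had a higher mean under NM-101, 13.6% lay above every placebo library and 5.98% below. No marker of these 4 cell types was listed at 0. Their part in the differences of Dnajb9, Ppp1r15a and Ddit4 was not tested.

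**Figure D2:**
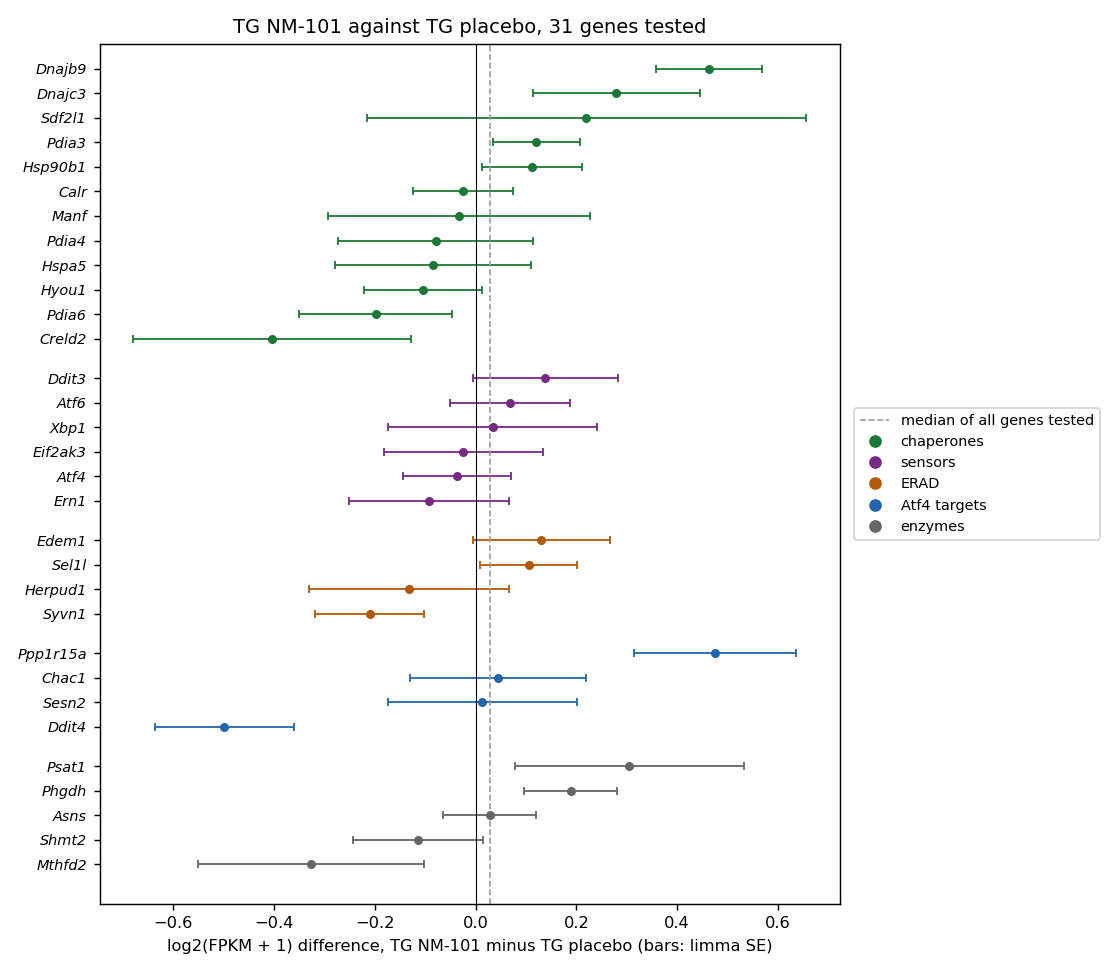
Difference in log2(FPKM + 1) between TG NM-101 and TG placebo for the 31 tested genes by branch (points), with the limma standard error (bars) and the median of all genes tested (dashed line at 0.03). Dnajb9 and Ppp1r15a lie farthest to the right and Ddit4 farthest to the left, and none passed an adjusted p under 0.05 with all 6 libraries.

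Among the chaperones and folding enzymes, Dnajb9 gave the smallest p of all the members. Dnajb9 (ERdj4, a co-chaperone of Hspa5 and a target of spliced Xbp1) stood at 4.73, 4.52 and 4.44 under placebo and at 4.98, 4.99 and 5.11 under NM-101. Each NM-101 library was above every placebo library, and the mean went from 4.56 ± 0.15 to 5.02 ± 0.07 (SD, n = 3). The difference of 0.46 (SE 0.11, 1.38-fold on the FPKM + 1 scale) had a limma adjusted p of 0.113. Without TG placebo replicate 1 it was 0.55 with a limma adjusted p of 0.00536, and over 14 alternatives it ran from 0.40 to 0.57 with adjusted p from 0.00489 to 0.52. The gene lies at chr12:44205897-44210068 in GRCm38.

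Pdia3, a disulfide isomerase that works on glycoproteins, also separated the groups, but by 0.12 (SE 0.09), with 6.05, 5.96 and 6.05 under placebo and 6.19, 6.18 and 6.05 under NM-101, where the lowest NM-101 value, 6.053, barely passed the highest placebo value, 6.052. Dnajc3 (P58IPK), an Hspa5 co-chaperone, differed by 0.28 (SE 0.17, limma adjusted p = 0.447), and by 0.44 without TG placebo replicate 1 (limma adjusted p = 0.0491, with 0.0491 to 0.851 over 14 alternatives). Creld2, a secreted ER stress protein, had a difference of -0.40 (SE 0.28), from 3.60, 3.18 and 3.28 to 3.57, 2.84 and 2.44. Single libraries moved it from -0.15 (without TG NM-101 replicate 3) to -0.72 (without TG NM-101 replicate 1), and with replicate 1 of both groups left out it was -0.59 (limma adjusted p = 0.0245, with 0.0245 to 0.875 over 14 alternatives). The other members of the branch had differences from -0.20 (Pdia6, a disulfide isomerase) to 0.22 (Sdf2l1, part of the Hspa5 complex), and all of these overlapped. Over the 12 genes 5 differences were above 0 and 7 below, with a median of -0.03.

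For several chaperones, libraries of the same group lay farther apart than the group means. Hspa5, at chr2:34772090-34776529, stood at 6.73, 6.41 and 6.35 in TG placebo replicates 1, 2 and 3 and at 6.85, 6.28 and 6.11 in TG NM-101 replicates 1, 2 and 3. Replicate 1 was the highest in both groups. Sdf2l1 gave 4.13, 3.39 and 2.81 under placebo and 4.39, 3.28 and 3.32 under NM-101, so that its replicate 1 lay 1.03 and 1.08 above the mean of the other libraries of the group. Manf, a secreted neurotrophic factor induced by ER stress, gave 4.80, 4.07 and 4.14, then 4.78, 4.08 and 4.05. Of the 12 genes of the branch, 8 were highest in replicate 1 of both TG groups (Hspa5, Pdia3, Pdia4, Pdia6, Dnajc3, Sdf2l1, Creld2 and Manf), a pattern noticed after the values were seen, and so were 14 of the 31 tested members (45.2%), against 15.5% of all genes tested. Among the 55 tested genes of a wider pathway list it was 9 (16.4%). Hsp90b1, Calr, Hyou1 and Dnajb9 did not follow it. For the first 3 of these, replicate 1 minus the mean of replicates 2 and 3 in TG placebo was -0.21, -0.24 and -0.24. Hsp90b1 stood at 6.66, 6.78 and 6.97 under placebo and at 6.91, 6.94 and 6.89 under NM-101, and Calr at 7.39, 7.59 and 7.66 and then at 7.56, 7.57 and 7.44. The ERSE was in both sets of genes, as in Hspa5 and Creld2 on one side and Hsp90b1 and Calr on the other. In WT these 8 genes were mixed. Replicate 1 was the highest WT library for Pdia3 (6.28, against 6.02 and 6.11), Pdia4 (4.30, against 4.03 and 3.90) and Dnajc3 (4.01, against 3.92 and 3.72). It was not for the other 5, and was the lowest for Sdf2l1 (3.17, against 3.41 and 3.18), Manf (4.21, against 4.51 and 4.38), Creld2 and Pdia6.

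Other RNA followed that pattern in the TG libraries. All 7 oligodendrocyte markers examined, from Mbp to Olig2, were highest in replicate 1 of both TG groups as well. Their summed FPKM was 3946, 1281 and 1237 in the TG placebo libraries and 3021, 1659 and 2270 in the TG NM-101 libraries, and none was listed at 0. The pattern was also followed by 3 of 5 glucocorticoid targets other than Ddit4, 2 of 8 astrocyte markers and 1 of 8 microglia markers. It was followed by 0 of 8 neuronal and 0 of 6 endothelial markers, against 15.5% of all genes tested. The 5 choroid plexus markers did not follow it in the treated group: their sum was 4572, 8.1 and 13.5 under placebo and 41.4, 1038 and 67.4 under NM-101, where replicate 2 was highest, and Folr1 was listed at 0 in TG placebo replicate 3. In WT replicates 1, 2 and 3 the oligodendrocyte markers had medians of 0.12, -0.34 and 0.29 relative to the WT mean. The 8 chaperones had -0.03, 0.08 and -0.04 there, in another order. Relative to the mean of the 6 TG libraries, the 8 chaperones had -0.20 and -0.26 in TG NM-101 replicates 2 and 3. The oligodendrocyte markers had -0.24 and 0.08 in those libraries. The part of oligodendrocytes and choroid plexus in the chaperone values was not tested. The replicate numbers carry no stated link between groups.

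**Figure D3:**
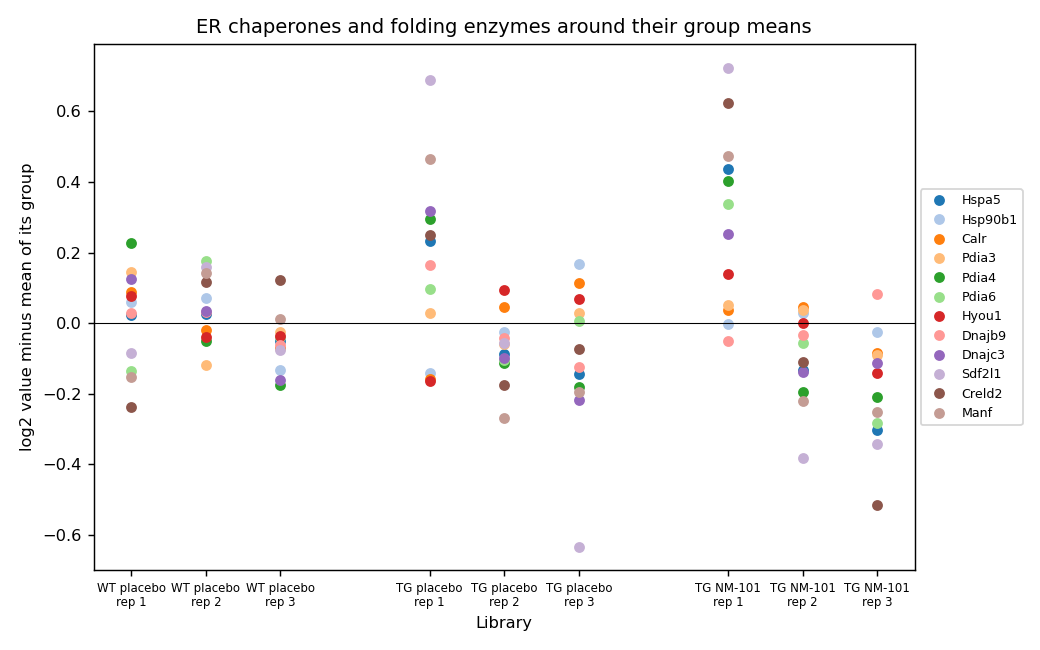
Each of the 12 chaperone and folding genes in each library, as its log2 value minus the mean of its own group (y axis), for the 9 libraries by group (x axis; points are genes). Replicate 1 of both TG groups lies high for most of the genes, led by Sdf2l1, while in WT replicate 1 Sdf2l1, Creld2, Manf and Pdia6 lie below 0 and the other 8 genes above it, with Pdia4 and Pdia3 the highest.

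None of the 6 tested stress sensors and transcription factors passed the test. Atf4 stood at 6.16, 5.85 and 6.09 under placebo and at 6.10, 5.99 and 5.90 under NM-101, a difference of -0.04 (SE 0.11). Ddit3 went from 4.74 ± 0.20 to 4.88 ± 0.22 (SD, n = 3), a difference of 0.14 (SE 0.14), and Eif2ak3 from 2.41 ± 0.14 to 2.39 ± 0.22. The differences of Atf6, Ern1 and Xbp1 were 0.07, -0.09 and 0.03, and the 6 tested genes of the branch split into 3 above and 3 below 0, with groups that overlapped in every case. Atf3 stood at 0.39, 0.66 and 0.39 under placebo and at 0.75, 0.67 and 0.37 under NM-101, levels at which a few reads decide the value. The 8 immediate early genes examined, from Fos to Ier2, had higher means under NM-101 in 8 of 8 cases, against 55.5% of all genes tested. In 0 of 8 did the NM-101 libraries lie above every placebo library, and TG placebo replicate 1 was the lowest placebo library for each. Their summed FPKM overlapped, at 82.9, 130.6 and 141.4 under placebo and 173.6, 118.1 and 209.8 under NM-101.

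The table lists Xbp1 as 2 transcripts. RefSeq keeps one record for the unspliced form, NM_013842, and one for the form spliced by Ern1, NM_001271730, which lacks a short stretch of the coding sequence. The unspliced record stood at 4.96, 4.49 and 4.78 under placebo and at 5.11, 4.50 and 4.67 under NM-101. The spliced record stood at 2.45, 1.60 and 0.001 under placebo and at 2.70, 1.86 and 0 under NM-101. As a share of the linear sum of both, the spliced record made up 12.9%, 8.65% and 0% under placebo and 14.2%, 10.9% and 0% under NM-101. In WT it made up 93, 162 and 48 counts beside 516, 917 and 749, or 15.3%, 15.0% and 6.02%. Replicate 3 was the lowest in all 3 groups. Both records share their 3' end, from which this kit reads, so how the reads were divided between them in the table cannot be checked here and the shares are not a measure of splicing.

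None of the 4 genes of ER-associated degradation, which pulls misfolded proteins back to the cytosol, passed the test. Herpud1, a membrane scaffold of the degradation complex whose promoter is shown above, stood at 5.12 in TG placebo replicate 1 against 4.40 and 4.32 in replicates 2 and 3. Under NM-101 it stood at 4.56, 4.48 and 4.40, a difference of -0.13 between the group means (SE 0.20). Without TG placebo replicate 1 its sign turned, to 0.12, and it was 0.08 with replicate 1 of both groups left out. Syvn1 (Hrd1), the ubiquitin ligase, was at 3.55, 3.73 and 3.75 under placebo and at 3.56, 3.44 and 3.41 under NM-101. Its difference of -0.21 (SE 0.11) had a limma adjusted p of 0.397. Sel1l, its partner, differed by 0.11 (SE 0.10), with NM-101 values from 4.55 to 4.66 and placebo values from 4.42 to 4.60. Edem1, which hands over misfolded glycoproteins, differed by 0.13 (SE 0.14), and its groups did not overlap, at 1.91, 1.90 and 1.75 against 1.99, 1.92 and 2.04.

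The Atf4 targets and regulators did not share a direction: of the 4 tested, 3 differences were above 0 and 1 below. Ppp1r15a (Gadd34, the phosphatase subunit that reverses eIF2alpha phosphorylation) stood at 3.12, 2.71 and 2.60 under placebo and at 3.12, 3.42 and 3.31 under NM-101. All NM-101 values were the higher ones, though replicate 1 of each group lay close together, at 3.115 and 3.120. The difference of 0.48 (SE 0.16, 1.39-fold on the FPKM + 1 scale) had a limma adjusted p of 0.242, and was 0.63 without TG placebo replicate 1 (limma adjusted p = 0.0101) and 0.71 with replicate 1 of both groups left out (limma adjusted p = 0.00489). Over 14 alternatives the limma adjusted p ran from 0.00489 to 0.637. The gene lies at chr7:45522917-45526268.

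Ddit4 (Redd1), an mTORC1 inhibitor induced through Atf4, by hypoxia and by glucocorticoids, had the lowest difference of the 31 genes. It stood at 6.14, 5.70 and 5.72 under placebo and at 5.24, 5.29 and 5.53 under NM-101, with every treated library below every placebo library. The mean went from 5.85 ± 0.25 to 5.35 ± 0.16 (SD, n = 3), a difference of -0.50 (SE 0.14), with a limma adjusted p of 0.169. Without TG placebo replicate 1 it was -0.36 (limma adjusted p = 0.0419, with 0.0419 to 0.481 over 14 alternatives). Of 5 other glucocorticoid targets 2 had higher and 3 lower values under NM-101, and their summed FPKM was 248.0, 140.5 and 149.7 under placebo and 198.0, 139.8 and 159.7 under NM-101. The sum was highest in TG placebo replicate 1, though Per1 was lowest there among the placebo libraries (3.79, against 4.35 and 4.44), and the groups overlapped. The part of these targets' signal in the Ddit4 values was not tested. Ddit4 lies at chr10:59949675-59951770.

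The other targets had smaller differences. Chac1 stood at 2.07, 2.23 and 1.83 and then at 2.13, 1.84 and 2.31, a difference of 0.05 (SE 0.17). Sesn2, a stress-induced regulator of mTORC1, stood at 2.74, 2.27 and 2.10 and then at 2.45, 2.20 and 2.49, a difference of 0.01 (SE 0.19). Trib3 lay between 0.06 and 0.38 in the 6 libraries and was not tested. Of the genes with a CARE in the promoter window, only Asns, Chac1 and Herpud1 were tested, as Atf3 and Trib3 were too low. None of them had an unadjusted p under 0.05 in limma, against 9.68% of the tested members and 14.8% of all genes tested. With so few genes tested, this is no result about the motif.

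**Figure D4:**
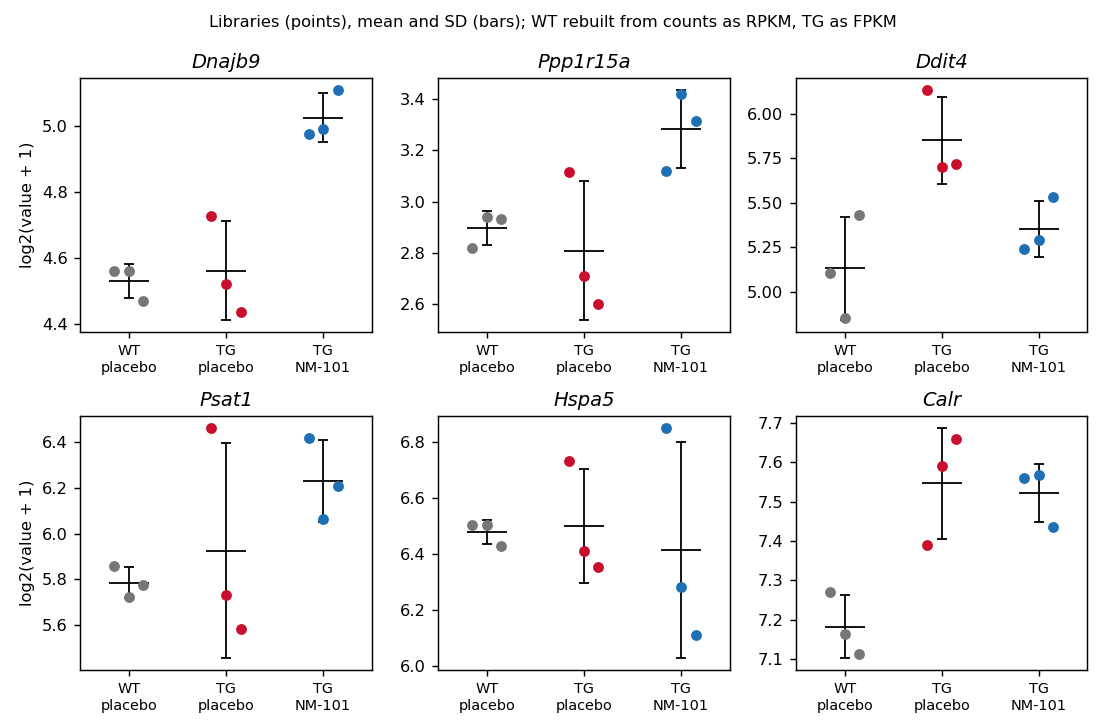
Dnajb9, Ppp1r15a, Ddit4, Psat1, Hspa5 and Calr in each of the 9 libraries (points, log2(value + 1); WT as RPKM rebuilt from counts, TG as FPKM), with the mean and SD of each group of 3 (bars). The TG NM-101 libraries lie above all TG placebo libraries for Dnajb9 and Ppp1r15a and below them for Ddit4; Hspa5 overlaps across all groups.

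None of the 5 Atf4-linked enzymes passed the test with all 6 TG libraries. Phgdh and Psat1 carry out the first steps of serine synthesis, which in brain is led by astrocytes. Psat1 stood at 6.46, 5.73 and 5.58 under placebo and at 6.42, 6.06 and 6.21 under NM-101, a difference of 0.30 (SE 0.23, limma adjusted p = 0.551). Without TG placebo replicate 1, the highest library, the difference was 0.57 (limma adjusted p = 0.0092, with 0.0092 to 0.917 over 14 alternatives). Phgdh stood at 5.94, 5.78 and 5.78 and then at 6.08, 5.93 and 6.06, a difference of 0.19 (SE 0.09, limma adjusted p = 0.377). The mitochondrial one-carbon enzymes had differences below 0, Mthfd2 of -0.33 (SE 0.22) and Shmt2 of -0.11 (SE 0.13), and their groups overlapped. Asns, asparagine synthetase and a standard Atf4 reporter, stood between 5.35 and 5.49 under placebo and between 5.37 and 5.56 under NM-101, a difference of 0.03 (SE 0.09). All 8 astrocyte markers examined had higher means under NM-101 (55.5% of all genes tested did), with 5 of 8 above every placebo library (against 13.6%). Among the 5 was Sox9, which passed the test (0.77, limma adjusted p = 0.0425). The summed FPKM of the 8 was 1154 to 1303 under placebo and 1636 to 1746 under NM-101. No astrocyte marker was listed at 0, and the part of astrocyte RNA in the values of Phgdh and Psat1 was not tested.

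A second list held 62 further genes of these pathways, of which 61 were found and 55 tested. None passed an adjusted p under 0.05 in limma, and 8 of the 55 (14.5%) had an unadjusted p under 0.05, against 14.8% of all genes tested. Of the 55, 33 differences were above 0 (60.0%, against 55.5% of all genes tested), with a median of 0.04 beside 0.03 over all genes. The highest were Crebrf, a regulator of the unfolded protein response, at 0.52 (SE 0.12, limma adjusted p = 0.118), and Cth, an enzyme of cysteine synthesis, at 0.42 (SE 0.16, limma adjusted p = 0.283). The lowest were Eif2ak4 (Gcn2, the kinase that senses amino acid shortage) at -0.40 (SE 0.23) and Txndc11, an ER thioredoxin-domain protein, at -0.37 (SE 0.14).

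For TG placebo against WT placebo the comparison asks what the genotype changed, and here it can only be described. Of the 33 genes 30 had a mean of at least 1 over the 9 libraries on the rebuilt scale, and Ern1, Atf3 and Trib3 did not. The median difference of the 30, TG placebo minus WT, was 0.03, beside 0.05 over 12410 genes, and -0.03 with median-ratio scaling. All 3 TG placebo libraries lay above all WT libraries for 6 of the 30 (20.0%, against 20.8% of all genes) and below them for 2 (6.67%, against 15.9%). The genes above were Calr, Hyou1, Creld2, Syvn1, Ddit4 and Shmt2, and those below Hsp90b1 and Asns. The widest difference was that of Ddit4, at 5.11, 4.85 and 5.43 in WT against 6.14, 5.70 and 5.72 in TG placebo, with means of 5.13 ± 0.29 and 5.85 ± 0.25 (SD, n = 3). Beside it, the median differences of TG placebo minus WT were 0.39 for the 5 other glucocorticoid targets, 1.78 for RNA retained in nuclei and -0.36 for oligodendrocyte markers. For TG NM-101 minus WT the same medians were 0.36, 0.25 and -0.28, with Ddit4 at 0.22. The part of these RNAs in the Ddit4 differences was not tested.

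The treated TG libraries were set beside the same WT libraries, which both comparisons share. There the median was 0.08, beside 0.05 over all genes, and 0.02 with median-ratio scaling. All NM-101 libraries lay above all WT libraries for 6 of the 30 (20.0%, against 23.5% of all genes) and below them for 1 (3.33%, against 13.1%). The 6 were Calr, Hyou1, Dnajb9, Sesn2, Ppp1r15a and Psat1, and the 1 was Hsp90b1. Ddit4 overlapped WT under NM-101 (5.35 ± 0.16 against 5.13 ± 0.29), while Dnajb9 was at 4.53 ± 0.05 in WT, 4.56 ± 0.15 in TG placebo and 5.02 ± 0.07 in TG NM-101 (SD, n = 3 each). Calr (0.36 and 0.34 above WT), Hyou1 (0.39 and 0.29) and Hsp90b1 (-0.35 and -0.24) lay on the same side of WT in both TG groups. By their means so did Sesn2 (0.34 and 0.35), Shmt2 (0.40 and 0.29) and Asns (-0.20 and -0.17), each with 1 TG group that overlapped WT. A transcript length other than the one the authors used would shift both TG groups alike against WT. For all these genes a length mismatch and a genotype difference cannot be told apart. The same holds for Ern1, at 0.36 ± 0.06 in WT against 1.05 ± 0.15 and 0.96 ± 0.11 in the TG groups (SD, n = 3), whose WT level was rebuilt with a length of 6946 bases.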

How the data were processed

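RNA was extracted from mouse brain with a kit for fixed tissue and made into QuantSeq libraries, per the labels' protocols. Bowtie2 and mm10 are listed in the submitters' processing notes. The counter, its annotation and the tool version were not given in the sources used here. One deposited table gives raw counts for the WT libraries and log2 values for the TG libraries. That the authors' log2 values are log2(FPKM + 1) was read from the data: across 16733 transcripts they had a slope of 0.957 on log2 WT CPM (counts scaled to library total) and of -0.869 on log2 length. Read depth in the TG libraries was estimated from the steps between low values and is not a deposited number.

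Transcripts were summed by gene symbol on the linear scale with a pseudocount of 1. TG NM-101 was compared with TG placebo in limma 3.58.1 (R 4.3.3, trend and robust shrinkage, two-sided), over genes whose log2 values averaged 1 or more, at a Benjamini-Hochberg adjusted p of 0.05. The procedure was tested on simulated data. WT counts were divided by library total and GENCODE M21 transcript length (build GRCm38), and edgeR 4.0.16 served for one alternative scaling of them. All 33 genes are named, as are, from the wider pathway list, those called or otherwise those with the 2 highest and the 2 lowest differences. The genes, lists and tests were chosen with earlier results of these data known. Alternatives covered scaling, the filter, the pseudocount, transcript summing, limma settings, a replicate block and leaving out each library. Reads of the 3' end cannot always be told apart between transcripts or near copies of a gene. 1 gene of the oligodendrocyte marker list is not reported here.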

Additional observations from a re-analysis of the deposited data

How the results depend on the processing

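With all 6 TG libraries, 17 genes were called between TG NM-101 and TG placebo. That number was 7 with the highest transcript per gene, 4 without trend and robust shrinkage, 4 with median-ratio scaling, 4 without a filter, and 0 with only genes above 0 in all 6 libraries. Leaving out 1 library gave 2 to 2269 genes called, the highest without TG placebo replicate 1, and 0 to 5 of the 31 members called. With replicate 1 of both TG groups left out, a setting chosen after seeing the data, 2704 genes and 4 members were called. In every other alternative run 0 members were called. The replicate block gave 3 genes and 0 members. Replicate numbers are not stated to pair samples, and deviations of same-numbered TG libraries correlated at 0.045, -0.027 and -0.018 over genes, so the numbers were taken as names. The cause of these differences was not tested. Dnajb9, Ppp1r15a and Ddit4 kept their sign in 14 of 14 alternatives. Differences that were called under no setting turned sign in some fits for 14 genes. With 1 library left out they ran from -0.303 to 0.067 for Hspa5, -0.104 to 0.0313 for Calr, -0.281 to 0.0677 for Pdia4, -0.14 to 0.56 for Sdf2l1, -0.27 to 0.20 for Manf, -0.141 to 0.0787 for Eif2ak3, -0.0047 to 0.13 for Atf6, -0.18 to 0.18 for Xbp1, -0.128 to 0.0263 for Atf4, -0.28 to 0.12 for Herpud1, -0.0627 to 0.172 for Chac1, -0.12 to 0.20 for Sesn2 and -0.0252 to 0.0663 for Asns. With replicate 1 of both TG groups left out Xbp1 was at -0.0339 and Herpud1 at 0.08. Median-ratio scaling gave -0.0113 for Sesn2 and -0.0010 for Asns, and the highest transcript per gene 0.019 for Shmt2. Depth limits Atf3 and Trib3, which were too low to test, and Ern1, which rests on 22 to 26 counts in each WT library.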

Other observations

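Of the 55 tested genes of the wider pathway list, 7 lay higher in every TG NM-101 library than in any TG placebo library (12.7%, against 13.6% of all genes tested) and 3 lay lower in every one (5.45%, against 5.98%). The 3 lower ones were Ero1a (-0.21), Txndc11 (-0.37) and Edem2 (-0.15), all of protein folding or degradation in the ER. The higher ones were Creb3l2, Crebrf, Canx, Sec61b, Sec63, Psph and Cth, of which 3 are given here, chosen after their values were seen. Sec61b, a subunit of the channel through which proteins enter the ER, stood at 5.78, 5.78 and 5.78 under placebo and at 6.16, 6.25 and 6.06 under NM-101 (limma adjusted p = 0.117), while Sec61a1, of the same channel, had a difference of -0.23 (limma adjusted p = 0.384). Canx, the membrane-bound partner of calreticulin, stood at 6.31, 6.33 and 6.30 and then at 6.52, 6.60 and 6.64 (limma adjusted p = 0.188). Psph, which completes serine synthesis after Phgdh and Psat1, stood at 3.85, 3.91 and 3.73 and then at 4.32, 4.00 and 4.28 (limma adjusted p = 0.217). None of the 55 passed the test.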
